A study of Mus musculus with 8 samples.

Results

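The 7 Wnt ligand genes Wnt2, Wnt2b, Wnt4, Wnt5a, Wnt5b, Wnt9a and Wnt11 were followed in RNA from mouse small-intestinal stroma sorted by a YFP reporter. They were taken by symbol from the 53801 genes of the count table, which holds 19 Wnt genes. All 7 passed the expression filter, which kept 16354 genes. Cells negative for CD45, a haematopoietic marker, and for CD31, an endothelial marker, came from LTβRYFP mice, a line named after the lymphotoxin beta receptor. They were split by flow cytometry into YFP+ cells (4 libraries) and YFP- cells (4 libraries) of the same mouse line, with no treatment named for either. The sources used here do not give age, strain, the number of animals or the element that drives YFP, so what a YFP signal marks in these cells cannot be stated.

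The labels conflict. For each of the 8 samples the title reads YFP+ where description and genotype read YFP-, or the reverse. The description set the groups here, which matches the genotype and the names of the count columns, and every direction below would turn over if the titles held instead. Ltbr RNA, from the gene the mouse line is named after, did not separate the labels. It was 56.6 ± 1.27 CPM in YFP+ and 52.4 ± 6.85 CPM in YFP- cells (SD, n = 4, log2 fold change 0.12, adjusted p = 0.396 by edgeR). CPM are counts scaled to each library's total after TMM, a normalisation between libraries. Library totals ran from 23272858 to 29829232 counts. The stromal receptor gene Pdgfra was high in both fractions (1036 and 1055 CPM on average), whereas Ptprc, which encodes CD45, averaged 2.29 and 2.38 CPM and Pecam1, which encodes CD31, 4.66 and 7.46 CPM. Libraries with the same replicate number deviated together from their group means, so they were compared as 4 pairs. In bulk RNA, fewer cells of a type and less RNA per cell cannot be told apart.

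Wnt proteins are lipid-modified growth factors that act over short distances on Frizzled receptors. With LRP5 or LRP6 as co-receptor they stabilise β-catenin, which drives target genes with TCF/LEF factors. With ROR or RYK co-receptors they act on cell shape and polarity without β-catenin. In the gut, stromal cells around the crypts supply Wnt ligands and R-spondins to the epithelium, where stem cells depend on them, and Wnt2b is a well-known stromal ligand of the β-catenin branch. Wnt5a, Wnt5b and Wnt11 are usually placed in the branch that does not use β-catenin, and Wnt4 has been placed in both.

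The start regions of the 3 ligand genes whose RNA differed between the fractions are shown because these genes moved in different directions. Promoter windows of 250 bases came from RefSeq (GRCm38.p6), and 6 of the 7 genes had an entry. Each stretch below is the part of the window that lies before both the RefSeq and the GENCODE start, on the plus strand, 5′ to 3′. Capitals mark each GC box, which is GGGCGG read on either strand. In the line of Wnt11 they also mark a TCF/LEF core, whose letters CTTTGAT lie on the minus strand, directly after a GC box. The last capitals of that line are a TATA box, spelled TATAAA. The stretches are chr4:137277385-137277488 for Wnt4, chr11:59306680-59306927 for Wnt9a and chr7:98834862-98835111 for Wnt11.
Wnt4: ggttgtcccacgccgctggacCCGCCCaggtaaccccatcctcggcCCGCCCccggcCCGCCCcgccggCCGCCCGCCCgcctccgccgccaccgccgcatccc
Wnt9a: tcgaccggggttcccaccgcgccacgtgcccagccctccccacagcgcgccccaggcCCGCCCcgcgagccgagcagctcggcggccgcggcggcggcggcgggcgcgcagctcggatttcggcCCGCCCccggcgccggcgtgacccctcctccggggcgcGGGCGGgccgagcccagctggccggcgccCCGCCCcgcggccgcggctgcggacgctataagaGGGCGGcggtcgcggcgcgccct
Wnt11: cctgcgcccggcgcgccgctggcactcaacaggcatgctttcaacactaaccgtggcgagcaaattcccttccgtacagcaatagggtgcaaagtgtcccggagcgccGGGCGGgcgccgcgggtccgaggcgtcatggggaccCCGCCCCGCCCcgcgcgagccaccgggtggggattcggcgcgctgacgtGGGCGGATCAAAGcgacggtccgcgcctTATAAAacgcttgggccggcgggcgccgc

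Over the full windows, Wnt4 held 8 GC boxes, Wnt9a 5 and Wnt11 4, and 5 of those of Wnt4 lie in the stretch shown. Neighbouring boxes can share letters, as the run CCGCCCGCCC in Wnt4 and the run CCGCCCCGCCC in Wnt11 show. A GC box, searched on both strands, occurred in 32.7% of the 32851 RefSeq promoter windows. All 3 windows were rich in G and C (85.2%, 84.4% and 70.8% for Wnt4, Wnt9a and Wnt11), above the median window at 52.4%. So were the first windows of Wnt2b (80.8%), Wnt5b (75.2%) and Wnt2 (63.6%), ligands that did not pass the test below. Among the windows of Wnt4, Wnt9a and Wnt11, only that of Wnt11 held a TATA box (found in 12.4% of windows) and a TCF/LEF core (3.21% of windows). A window of another Wnt5b start, at chr6:119449387-119449636, also held a TCF/LEF core. A second RefSeq start of Wnt11, with a window at chr7:98838595-98838844, held none of the 3 motifs. These are letter matches and not binding sites.

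Of the 7 ligands, 1 was higher and 2 were lower in YFP+ than in YFP- cells. Across all 16354 genes tested, 3.65% were higher and 7.85% lower, or 11.5% in either direction, at an adjusted p under 0.05. The median log2 fold change of the ligands was -0.12, beside 0.01 for all genes. Wnt4 rose, Wnt9a and Wnt11 fell, and Wnt2, Wnt2b, Wnt5a and Wnt5b did not pass the test. All adjusted p-values given for genes are from edgeR's quasi-likelihood test with the pairs as a block, Benjamini-Hochberg adjusted over all genes tested. Separate animals are not named for the libraries, so each p-value reflects library-to-library spread alone, and that spread may be technical.

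Wnt4 (ENSMUSG00000036856, chromosome 4, 137277489 to 137299726 on the plus strand, GRCm38) was the ligand that rose. In YFP- cells it stood at 15.6, 18.7, 15.7 and 12.9 CPM in replicates 1 to 4, and in YFP+ cells at 28.1, 37.6, 30.1 and 21.2 CPM. Every YFP+ library lay above every YFP- library, and replicate 2 was the highest and replicate 4 the lowest in both fractions. The means were 29.3 ± 6.74 and 15.7 ± 2.35 CPM (SD, n = 4), a fold of 1.84 (95% interval 1.58 to 2.14; log2 fold change 0.88, SE 0.11, adjusted p = 1.31e-06). Without the pairs as a block the adjusted p was 0.00385. The authors' deposited table gives a log2 fold change of 0.887 for the gene.

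Wnt9a, which can act through β-catenin, fell. The gene (ENSMUSG00000000126) lies on chromosome 11 from 59306928 to 59333552 on the plus strand. Its level in YFP- cells was 44.1, 26.8, 27.1 and 31.7 CPM and in YFP+ cells 28.1, 22.5, 19.5 and 19.2 CPM, in replicates 1 to 4. The fractions overlapped, because the YFP+ library of replicate 1 exceeded the YFP- libraries of replicates 2 and 3, yet YFP+ was the lower of the pair in all 4 pairs. The log2 fold change was -0.53 (SE 0.10, adjusted p = 0.000693), or a fold of 0.693 (95% interval 0.598 to 0.803), on means of 22.3 ± 4.13 and 32.4 ± 8.08 CPM. Without the block the log2 fold change was -0.54 with an adjusted p of 0.102. When a single library was left out as well, only the fit without YFP+ replicate 1 passed (-0.67, adjusted p = 0.0423). The other fits of this kind had adjusted p-values from 0.0741 to 0.287.

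Wnt11 (ENSMUSG00000015957, chromosome 7, 98835112 to 98855195 on the plus strand) also fell. It measured 12.6, 15.7, 8.77 and 11.6 CPM in YFP- and 6.93, 9.34, 7.04 and 8.84 CPM in YFP+ cells. The lowest YFP- library, replicate 3, lay below 2 of the YFP+ libraries, so the fractions overlapped, but YFP+ was again lower in 4 of 4 pairs. Means were 8.04 ± 1.23 and 12.1 ± 2.85 CPM, with a log2 fold change of -0.58 (SE 0.16, adjusted p = 0.0152) and a fold of 0.670 (95% interval 0.534 to 0.839). The adjusted p was 0.1 without the block, 0.11 without pair 1 and 0.0892 without pair 2. An opposite-strand pseudogene, Gm8398, shares 364 exon bases (8.80%) with Wnt11, and the strand setting of the counting is not given in the sources used here.

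**Figure D1:**
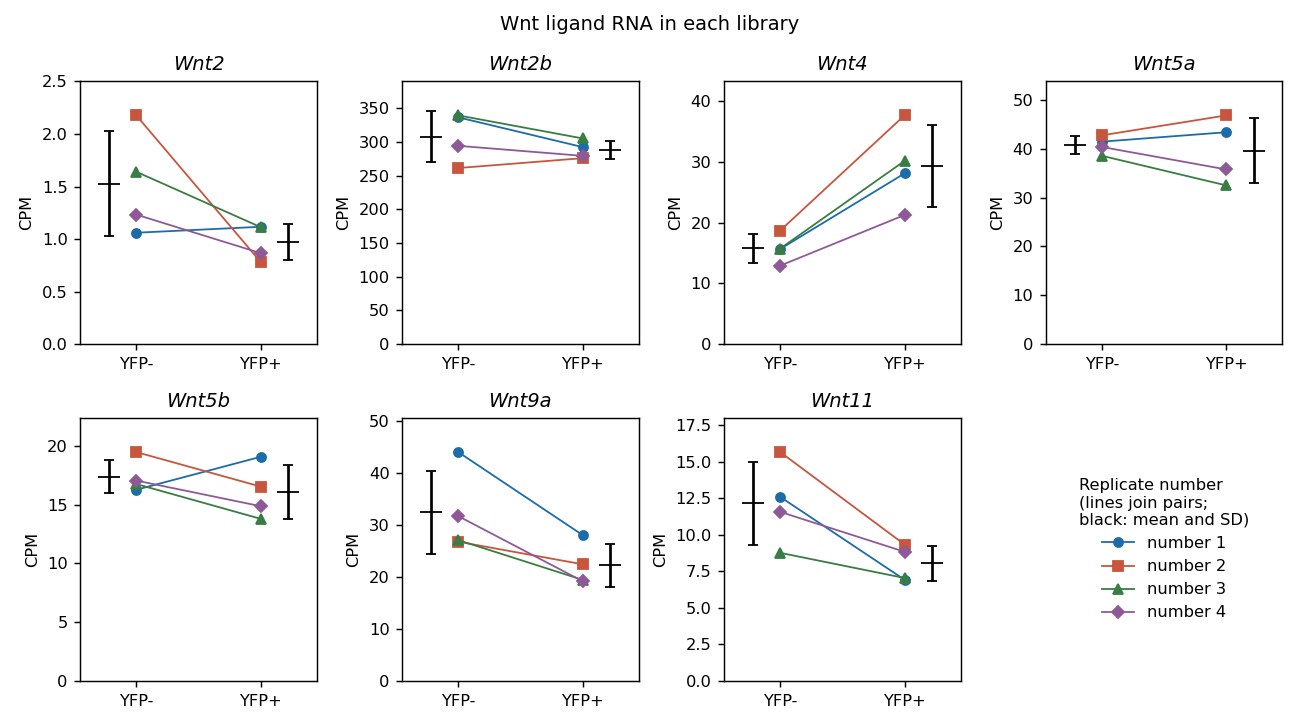
Level of each Wnt ligand in CPM (vertical axis, from 0, scaled per gene) in the YFP- and YFP+ libraries; coloured points are replicates, thin lines join the libraries with the same number, and black marks give mean and SD (n = 4). For Wnt4 all YFP+ points lie above all YFP- points, and for Wnt9a and Wnt11 every line falls from YFP- to YFP+ although the points overlap.

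Wnt2b (ENSMUSG00000027840, chromosome 3, 104945272 to 104961921 on the minus strand) was the most abundant ligand. YFP- libraries held 337, 261, 339 and 294 CPM and YFP+ libraries 292, 276, 305 and 279 CPM. The YFP+ values all lay inside the YFP- range, and the 2 fractions averaged 288 ± 13.4 and 308 ± 37.3 CPM. The log2 fold change was -0.09 (95% interval -0.20 to 0.02, adjusted p = 0.363), an interval narrow enough to leave out changes of the size seen for Wnt4, Wnt9a or Wnt11.

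Wnt5a and Wnt5b, close relatives that signal largely without β-catenin, did not pass the test either. Wnt5a (ENSMUSG00000021994, chromosome 14, 28504750 to 28527448, plus strand) stood at 41.5, 42.8, 38.6 and 40.4 CPM in YFP- and 43.4, 46.8, 32.5 and 35.8 CPM in YFP+ cells. Its YFP+ libraries lay on both sides of the YFP- range, 2 above and 2 below, and the log2 fold change was -0.06 (95% interval -0.24 to 0.13, adjusted p = 0.776). The antisense gene Gm2670 shares 358 exon bases (4.58%) with Wnt5a. Wnt5b (ENSMUSG00000030170, chromosome 6, 119432531 to 119544347, minus strand) stood at 16.3, 19.5, 16.8 and 17.0 CPM in YFP- and 19.1, 16.5, 13.8 and 14.9 CPM in YFP+ cells. Its libraries overlapped too, at a log2 fold change of -0.12 (95% interval -0.37 to 0.13, adjusted p = 0.619). Across the 8 libraries these genes gave the highest correlation of log2 CPM among all pairs of the 7 ligands (Pearson r = 0.7634), a description only, since the libraries share pairs and a fraction.

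Wnt2 (ENSMUSG00000010797, chromosome 6, 17988940 to 18030585, minus strand), a relative of Wnt2b, was the scarcest of the 7. It measured 1.06, 2.18, 1.64 and 1.23 CPM in YFP- and 1.12, 0.781, 1.11 and 0.866 CPM in YFP+ cells, from 19 to 52 counts per library. The YFP- libraries of replicates 2 and 3 were the highest, and replicate 1 was about level between the fractions. The log2 fold change of -0.61 had a 95% interval from -1.63 to 0.40 (adjusted p = 0.509), so neither a fall nor a rise in this range could be told from no change.

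**Figure D2:**
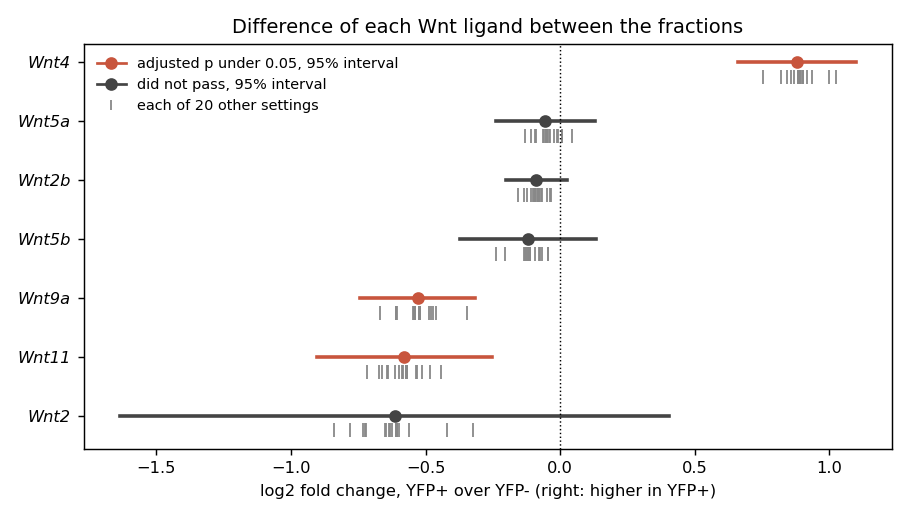
Log2 fold change of each Wnt ligand, YFP+ over YFP- (horizontal axis, no change at the dotted line), with its 95% interval; grey ticks give the value under each of 20 other settings. Wnt4 lies at 0.88 and Wnt9a and Wnt11 at -0.53 and -0.58, while the interval of Wnt2 runs from -1.63 to 0.40.

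Levels were compared between ligands after division by exon length (RPKM, the CPM per kilobase of exon, here computed with GENCODE M21 lengths). In YFP- cells Wnt2b came first at 73.3 ± 8.88 RPKM, followed by Wnt9a (9.74 ± 2.43), Wnt5b (6.55 ± 0.538), Wnt5a (5.21 ± 0.227), Wnt4 (3.75 ± 0.561), Wnt11 (2.94 ± 0.688) and Wnt2 (0.678 ± 0.220 RPKM; SD, n = 4 each). Among neighbours in that order only Wnt4 and Wnt11 overlapped. In YFP+ cells Wnt2b again came first at 68.6 ± 3.18 RPKM, and Wnt4 stood next at 6.98 ± 1.61, beside Wnt9a at 6.70 ± 1.24 and Wnt5b at 6.05 ± 0.866 RPKM. These 3 overlapped, and Wnt4 exceeded Wnt9a in 2 of the 4 YFP+ libraries. Wnt5a followed at 5.06 ± 0.848 RPKM, overlapping Wnt5b, and Wnt11 (1.94 ± 0.297) and Wnt2 (0.430 ± 0.0763) came last, apart from their neighbours.

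The make-up of the ligand pool was taken as each gene's share of the summed RPKM of the 7 genes. In all 4 pairs the share of Wnt4 was higher in YFP+ cells and the shares of Wnt9a and Wnt11 were lower. Wnt2b made up 71.7 ± 3.11% of the pool in YFP+ and 71.6 ± 3.37% in YFP- cells. Wnt4 rose from a share of 3.15 to 4.83% in the YFP- libraries to 5.63 to 9.33% in the YFP+ libraries, with no overlap. Shares of Wnt9a averaged 6.97 ± 1.08% in YFP+ and 9.49 ± 1.78% in YFP- cells, and those of Wnt11 2.04 ± 0.373% and 2.92 ± 0.879%. The summed level itself was 95.8 ± 4.09 RPKM in YFP+ and 102 ± 8.90 RPKM in YFP- cells. Shares of one pool depend on each other, and 4 pairs cannot reach an exact permutation p of 0.05, so they are given as a description.

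**Figure D3:**
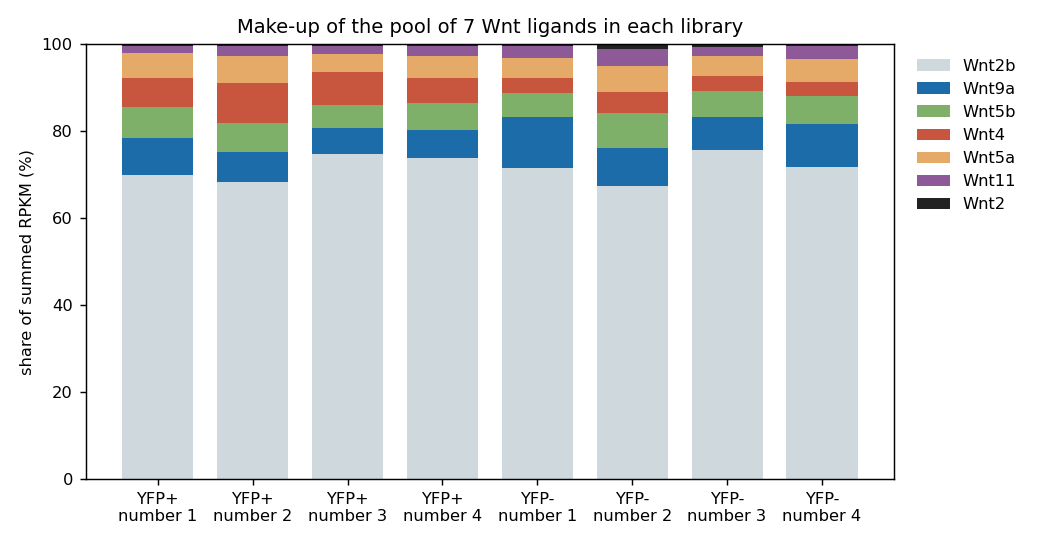
Share of each ligand (vertical axis, % of the summed RPKM of the 7 genes) in each library, YFP+ at left and YFP- at right. Wnt2b takes about the same share in both fractions, and the Wnt4 band is wider in every YFP+ library (5.63 to 9.33%) than in any YFP- library (3.15 to 4.83%).

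The ratio of Wnt4 to Wnt9a in RPKM was 0.282, 0.553, 0.460 and 0.323 in YFP- replicates 1 to 4 and 0.794, 1.33, 1.23 and 0.878 in YFP+ replicates 1 to 4. All YFP+ ratios lay above all YFP- ratios. Since Wnt4 was called higher and Wnt9a lower in these same libraries, this separation adds no separate evidence and is a description only. Against Wnt5a, whose level did not pass the test, the ratio of Wnt4 was 0.597 to 0.815 in YFP- cells, and 1.11 to 1.73 in YFP+ cells.

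The other 12 Wnt genes of the table were near the detection limit. They drew 339 counts over all libraries, against 86144 for the 7 ligands, which thus held 99.6% of the Wnt counts. Wnt6 alone among the 12 passed the expression filter, with means of 0.367 CPM (YFP+) and 0.693 CPM (YFP-) (log2 fold change -1.06, SE 0.71, adjusted p = 0.412). Wnt7b (0.387 CPM over all libraries), Wnt10b (0.182), Wnt8a (0.169) and Wnt7a (0.165 CPM) were not tested, and the remaining 7 averaged under 0.1 CPM. Wnt7a drew 1, 8, 20 and 5 counts from YFP+ replicates 1 to 4 and 3 from the YFP- libraries together.

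Among 7 tested genes for the processing and release of Wnt proteins, 2 were lower and none was higher. Beside this and each pathway list below stand the shares over all genes tested, 3.65% higher and 7.85% lower. The median log2 fold change of all genes was 0.01. Wls, the carrier that brings Wnt proteins to the cell surface, averaged 96.1 CPM in the YFP+ libraries, beside 98.1 CPM in the YFP- libraries (log2 fold change -0.03, adjusted p = 0.814). Porcn, the acyltransferase that adds the lipid, had a log2 fold change of 0.03 (adjusted p = 0.954). The heparan sulphate carriers and modifiers Gpc3 (log2 fold change -0.43, adjusted p = 2.07e-05) and Sulf1 (-0.19, adjusted p = 0.0256) fell, and only 1 gene of this list passed without the block, without pair 2 or without pair 3.

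Of 15 tested receptors and co-receptors, 6 were lower and 1 was higher. The Frizzled receptor Fzd7 fell from 69.7 ± 4.51 CPM in YFP- to 48.3 ± 4.32 CPM in YFP+ cells (log2 fold change -0.53, adjusted p = 1.93e-05). The co-receptors Ror2 (log2 fold change -0.27, adjusted p = 0.00354) and Ror1 (-0.31, adjusted p = 0.0318), which bind Wnt5a, and the β-catenin co-receptor Lrp6 (-0.18, adjusted p = 0.0251) fell by less. Ptk7, a polarity co-receptor, rose (log2 fold change 0.21, adjusted p = 0.0163). Without the block 1 receptor was lower and 0 were higher, and the lower count was 1 without pair 3 and 3 without pair 4; Lrp6, Ror1, Ror2 and Ptk7 were among the calls lost.

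R-spondins amplify Wnt signals by sparing Frizzled receptors from the ubiquitin ligases RNF43 and ZNRF3. In this module 4 of 7 tested genes were lower and none was higher, with a median log2 fold change of -0.53. Rspo3 fell from 52.2 ± 3.59 to 33.3 ± 7.24 CPM (log2 fold change -0.67, adjusted p = 7.62e-06). Rspo2 (-0.53, adjusted p = 6.71e-05), the R-spondin receptor Lgr4 (-0.46, adjusted p = 0.000793) and Znrf3 (-0.38, adjusted p = 0.00672) fell with it. Without the block 2 of these genes were lower, and Rspo2 had an adjusted p of 0.178.

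Wnt antagonists moved both ways: 2 of 9 tested rose and 3 fell. The Frizzled decoy Frzb (log2 fold change 0.54, adjusted p = 3.05e-05) and the Dickkopf relative Dkk3 (0.33, adjusted p = 7.92e-05) rose. Dkk2, which binds LRP5 and LRP6, fell from 125 ± 25.7 to 76.9 ± 6.06 CPM (log2 fold change -0.68, adjusted p = 8.88e-08). Sostdc1 measured 3.58 to 8.50 CPM over the YFP- libraries but 0.0347 to 0.206 CPM over the YFP+ libraries (adjusted p = 2.64e-09). Sfrp5, another decoy, measured 2.58 to 5.03 CPM and 0 to 0.450 CPM in the same order (adjusted p = 0.00653, and 0.0582 without pair 3).

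Genes that relay the β-catenin signal inside the cell mostly did not pass: 3 of 16 tested were lower, with 0 lower without the block and 1 without pair 3. They were Gsk3a, a kinase of the complex that marks β-catenin for destruction (log2 fold change -0.39), and the transcription factors Tcf7l1 (-0.29) and Tcf7l2 (-0.20), all 3 with an adjusted p between 4.03e-05 and 0.0321. Of 11 tested target and feedback genes, 6 were lower and none was higher, with a median log2 fold change of -0.38. Tnfrsf19 (0.30, adjusted p = 0.0536) and Ccnd1, which encodes cyclin D1 (0.29, adjusted p = 0.0757), lay on the other side. The higher count was 1 under upper-quartile scaling, in voom, without mitochondrial and ribosomal RNA genes, and without pair 2 or pair 4, and it was 2 with no filter on low counts. The lower count was 3 without pair 1. Axin2, a widely used reporter of β-catenin signalling, stood between 53.7 and 68.3 CPM in YFP- and between 41.9 and 52.0 CPM in YFP+ cells, with no overlap (log2 fold change -0.30, adjusted p = 0.00671, and 0.113 without the block). Myc fell from 34.1 to 55.5 CPM over the YFP- libraries to 17.6 to 28.5 CPM over the YFP+ libraries (log2 fold change -0.84, adjusted p = 1.5e-06), and the feedback inhibitor Nkd2 from 13.4 ± 4.74 to 4.88 ± 0.651 CPM (-1.39, adjusted p = 0.000118). The related Nkd1 fell by 0.39 on the log2 scale (adjusted p = 0.00541). Znrf3, already described with the R-spondin module, is counted here too. So are Rnf43 of that module and Tcf7 of the relay list, which did not pass. Without the block only Myc and Nkd2 of the 11 genes passed. Axin2 also missed the threshold without pair 2, and Nkd1 without pair 1 or pair 3.

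Of 13 planar polarity genes, which serve the branch linked to Wnt5a and Wnt11, 1 rose and 1 fell. Over all genes tested, 11.5% passed in either direction. Vangl1, a core polarity membrane protein, rose from 105 ± 6.94 to 153 ± 10.5 CPM (log2 fold change 0.55, adjusted p = 4.95e-07). Celsr2, a polarity cadherin, fell by 1.22 on the log2 scale (adjusted p = 0.00873), a call that was lost without pair 2.

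**Figure D4:**
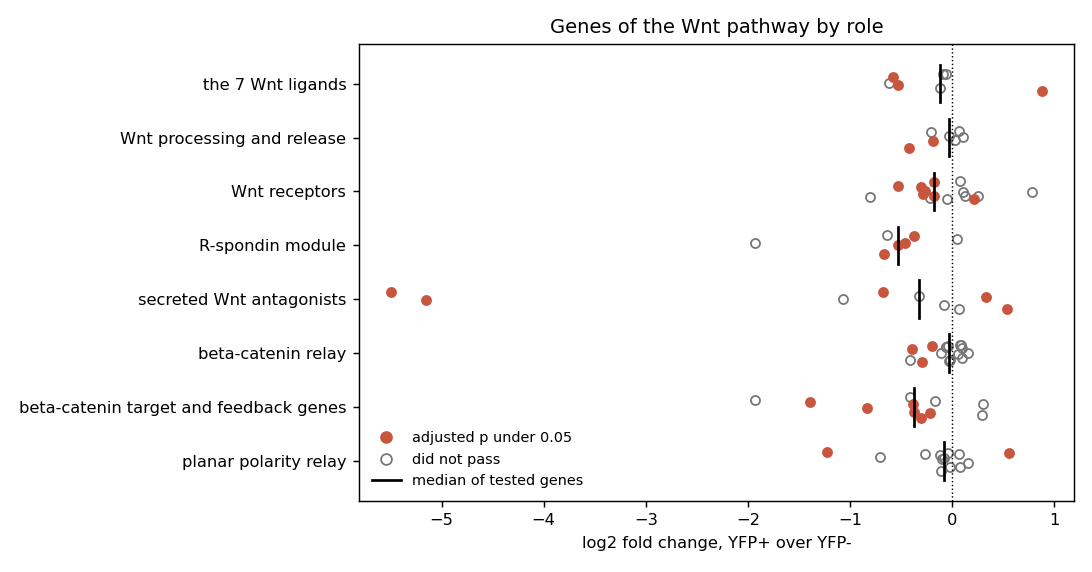
Log2 fold change, YFP+ over YFP- (horizontal axis), of each tested gene of the Wnt pathway, by role; filled points passed at an adjusted p under 0.05, open points did not, and bars are the medians of the lists. The R-spondin module (median -0.53) and the target and feedback genes (median -0.38) lie mostly left of the line of no change, and among the 7 ligands Wnt4 alone lies far to its right.

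Markers of several stromal cell types also differed between the fractions. The marker counts stand beside 3.65% higher and 7.85% lower over all genes tested. Of 11 tested markers of subepithelial fibroblasts rich in Pdgfra, 6 were higher and 1 was lower in YFP+ cells. Their summed level overlapped (1857 to 2597 CPM in YFP+, 1883 to 2390 CPM in YFP-), and Foxl1 was at 0. Without the block 3 of these markers were higher and 0 lower. Of 7 markers of crypt-base fibroblasts, a list that includes Rspo3, 6 were lower and 1 was higher (summed 6452 to 7431 against 8002 to 10984 CPM). Most of that sum was C3, which averaged 5808 CPM in YFP+ and 8184 CPM in YFP- cells. Smooth muscle and myofibroblast markers were higher in 7 of 9 (406 to 930 against 231 to 499 CPM), and 2 of 9 passed without the block.

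Enteric glia markers were lower in 9 of 10 (summed 9.16 to 11.8 CPM in YFP+, 126 to 201 CPM in YFP-). Epithelial markers were lower in 6 of 14 (22.4 to 29.2 against 49.6 to 103 CPM), and endothelial markers in 3 of 7 (45.1 to 56.3 against 65.5 to 95.6 CPM). Without the block 1 endothelial marker was lower. Enteric neuron markers were lower in 2 of 4, and in 1 without the block (6.24 to 7.36 against 5.22 to 22.6 CPM, with Tubb3 at 0). Of 3 mesothelial markers 1 was lower (4.77 to 5.31 against 7.73 to 17.7 CPM). It was Krt19, which is also on the epithelial list. Rspo1, also in the R-spondin module, averaged 3.82 CPM in YFP+ and 5.95 CPM in YFP- cells and did not pass. Msln and Lrrn4 drew 1 count each over all libraries. No haematopoietic marker of 7 passed in edgeR (summed 41.9 to 325 against 80.8 to 281 CPM), and Igha alone averaged 125 and 151 CPM.

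Among adventitial fibroblast markers 4 of 8 were lower and 1, Fn1, was higher, and 2 were lower without the block. Their summed level was higher in YFP+ cells (4955 to 5594 against 3663 to 4253 CPM, no overlap), and Fn1 alone averaged 4362 and 3097 CPM. Interstitial cell of Cajal markers were higher in 2 of 5 and lower in none (247 to 363 against 183 to 224 CPM, no overlap), and 1 was higher without the block. Most of that sum was Gja1, which averaged 259 CPM in YFP+ and 162 CPM in YFP- cells. Kit (0.487 and 1.71 CPM) and Ano1 (1.49 and 2.19 CPM) were scarce, were lower on average in YFP+ cells and did not pass. Of 6 pericyte markers 1 was higher and 1 lower (1203 to 1416 against 1075 to 1249 CPM), and Rgs5 alone averaged 1000 and 942 CPM. The part of these cell types in the differences of Wnt4, Wnt9a, Wnt11 and the pathway genes was not tested.

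Genes were ranked by how closely their log2 CPM followed each ligand over the 8 libraries, among the 8654 genes above a mean of 10 CPM. For Wnt4 the closest were Tpm1 (Pearson r = 0.9809), which encodes a tropomyosin, and Glipr2 (r = 0.9737). For Wnt9a they were Cntfr (r = 0.9757), a cytokine receptor subunit, and Cep57l1 (r = 0.9646), and for Wnt11 Arhgap31 (r = 0.967) and Tex2 (r = 0.9597). Wnt2b was followed by Lysmd3 (r = 0.9779) and Hnrnpl (r = 0.9378), an RNA-binding protein gene, and Wnt5a by Aldh1a1 (r = 0.92), a retinaldehyde dehydrogenase, and Vipas39 (r = 0.9162). Wnt5b was followed by Wdr25 (r = 0.9608) and Tfeb (r = 0.8904), a lysosomal transcription factor, and Wnt2 by Mid1 (r = 0.944) and Arhgap15 (r = 0.9279). The libraries share pairs and a fraction, and each pair of genes is the closest of all compared, so these are descriptions only.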

How the data were processed

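Per the labels' protocols, sorted cells were lysed and a stranded low-input kit for total RNA was used. The submitters' processing notes list STAR 2.7.3a, cutadapt 3.4, DESeq2 and featureCounts 2.0.1, with the GRCm38 (mm10) build, and no annotation. Deposited by the authors are raw, whole-number counts per gene and library. Log2 fold changes and adjusted p-values (deposited by the authors) were used only beside the results. The 8 normalised columns were not used.

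Of 53801 genes, 23010 had no counts. In R 4.3.3, edgeR 4.0.16 filtered by expression, scaled by TMM and fitted a robust quasi-likelihood model of fraction and replicate number, at an adjusted p threshold of 0.05; SEs are the absolute log2 fold change over the square root of F. CPM use TMM-scaled totals. Pairing was taken from the replicate numbers: deviations of same-numbered libraries correlated at 0.38 to 0.64, those of other pairs at -0.42 to 0.05. All 12 pairings of libraries within a fraction differed beyond sampling noise. Alternatives were other scalings and filters, DESeq2 1.42.0, voom in limma 3.58.1, no block, and leaving libraries out. The script was tested on simulated data. GENCODE M21 lengths matched 53706 gene IDs.

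The ligands, the pathway and marker lists were chosen with earlier results of these data known. All 7 ligands are named, other Wnt genes from 0.1 CPM, up to 4 called pathway genes per list and direction by p-value, and the 2 genes closest to each ligand. Wls, Porcn, Tnfrsf19, Ccnd1, Fn1, Gja1, Kit, Ano1, C3, Rgs5, Igha and Wnt7a's counts by fraction were added after their values were seen. So were the promoter values of Wnt2, Wnt2b and Wnt5b, and Krt19, Rspo1, Msln, Lrrn4, Tek, Cdh5, Kdr, Vwf, Rnf43 and Tcf7.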

Additional observations from a re-analysis of the deposited data

Results flagged for a closer look

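The total count of the YFP- library of replicate 4 stood apart from its group, at 28688906 counts against 23272858 to 23894251 in the other YFP- libraries. It was the only one of 32 sets of 4 libraries checked (the ligand levels, shares and totals) with a sample this far out, and chance alone flags about 1 set in 20.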

How the results depend on the processing

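Fitted without the replicate block, 697 genes passed (150 higher, 547 lower) in place of 1880, and 1 of the 7 ligands, Wnt4. Wnt4 passed in all 20 alternatives tried (log2 fold change 0.76 to 1.02), Wnt9a in 12 (-0.67 to -0.35) and Wnt11 in 10 (-0.72 to -0.44). Other scalings, filters, DESeq2 and voom gave 1754 to 2079 genes and kept those 3 ligands. Leaving out each pair, or each library without the block, gave 427 to 1581 genes, with 88 to 500 higher and 339 to 1126 lower, and 1 to 3 ligands. The lowest counts came without the block and YFP+ replicate 3. Wnt5a, which never passed, ranged from -0.13 to 0.044 and turned positive in 3 of these. The replicate block changed no call of the other 4 ligands. Wnt2, with 19 to 52 counts per library, had the widest interval.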
